A study of Mus musculus with 16 samples.

Results

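The comparison covered here is the effect of an inflamed ankle on lumbar dorsal root ganglia of TrkA/C knock-in (KI) mice. It rests on 8 of the 16 RNA sequencing libraries of the study, 4 from KI mice injected with complete Freund's adjuvant (CFA) and 4 from KI mice injected with saline (vehicle in the protocols), chosen by sample title. CFA is a suspension of killed mycobacteria in oil that causes a lasting inflammation of the joint, and the labels call the state MoArthritis. All mice were C57BL/6 by label and 10 to 12 weeks old. The injection went into the ankle joint, and the L4, L5 and L6 ganglia of the same side were taken 14 days later. Each library pooled 6 ganglia of 2 mice of 1 group, so a replicate is a pool of animals. The other 8 libraries came from wild-type (WT) mice, 4 after CFA and 4 after saline, and served here as context and to share the estimate of the spread.

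Dorsal root ganglia hold the cell bodies of sensory neurons, each wrapped by satellite glial cells, with Schwann cells along the axons. Nerve growth factor acts on peptidergic pain-sensing neurons. TrkC, the receptor of neurotrophin-3, is encoded by Ntrk3 and marks large neurons that sense limb position and touch. In published TrkA/C knock-in mice a chimeric receptor has the inner part of TrkC, so that nerve growth factor drives TrkC-type signals. The labels give only the knock-in's name. Nerve growth factor is made in inflamed joints, and in ordinary mice it sensitises pain-sensing neurons and raises their peptides and channels.

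Total counts ran from 31238001 to 40910947 in KI CFA libraries and from 27698035 to 37576008 in KI saline libraries. Values are CPM, the reads of a gene scaled to a common library size with TMM factors, group means are ± SD with n = 4, and log2 fold changes are KI CFA over KI saline, ± SE. Markers of the labelled tissue were present in all 8 libraries. Prph, the intermediate filament peripherin of small neurons, had 1976 to 2109 CPM in KI CFA and 1768 to 1970.0 CPM in KI saline, and 20 markers of myelinating Schwann cells summed to 5168 to 6462 CPM in KI CFA and 4714 to 6224 CPM in KI saline. The 7 tested markers of brain and spinal cord summed to 19.7 to 33.2 CPM in KI CFA and 23.7 to 32.6 CPM in KI saline.

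The genotype was checked first. Ntrk3 (Entrez 18213, chromosome 7, 78179986 to 78581034, build mm10) had 99.1, 106, 121 and 112 CPM in KI CFA libraries 1 to 4 and 116, 127, 108 and 138 CPM in KI saline libraries 1 to 4, against 29.3 to 61.4 CPM in WT. All 8 KI libraries lay above all 8 WT libraries. Reads of the chimera and of the native Ntrk3 gene cannot be told apart in gene counts. WT CFA replicate 1 carries a knock-in tag against its title, and its 48.4 CPM of Ntrk3 lay among the WT values.

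Skeletal muscle transcripts set the largest differences between KI CFA and KI saline ganglia. Muscle lies beside the spine where the ganglia are dissected, and the contractile proteins of its fibres are not typical products of neurons or glia. The summed level of 25 skeletal muscle markers was 27.4, 109, 48.6 and 23.1 CPM in KI CFA libraries 1 to 4. It was 1448, 26.6, 217 and 1384 CPM in KI saline libraries 1 to 4. KI saline 1 and 4 thus stood far above all other libraries, KI saline 3 was intermediate, and KI saline 2 lay within the range of KI CFA. In WT libraries the same sum was 20.6 to 24.3 CPM after CFA and 24.5 to 142 CPM after saline. Acta1, the actin of skeletal muscle fibres, had 1.15, 12.5, 2.91 and 0.467 CPM in KI CFA and 173, 0.610, 21.2 and 212 CPM in KI saline. Myoglobin (Mb) had 0, 1.58, 0.104 and 0.0246 CPM in KI CFA, and 22.7, 0, 0.341 and 42.8 CPM in KI saline. The groups overlapped for both genes, since KI saline 2 was low for Acta1 and had no count of Mb, and KI CFA 2 was high for Mb. How muscle transcripts came into these libraries was not tested. KI CFA 3 stood apart in another way, with 335 CPM of neutrophil and marrow genes against 12.1 to 30.8 CPM in the other KI CFA libraries.

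**Figure D1:**
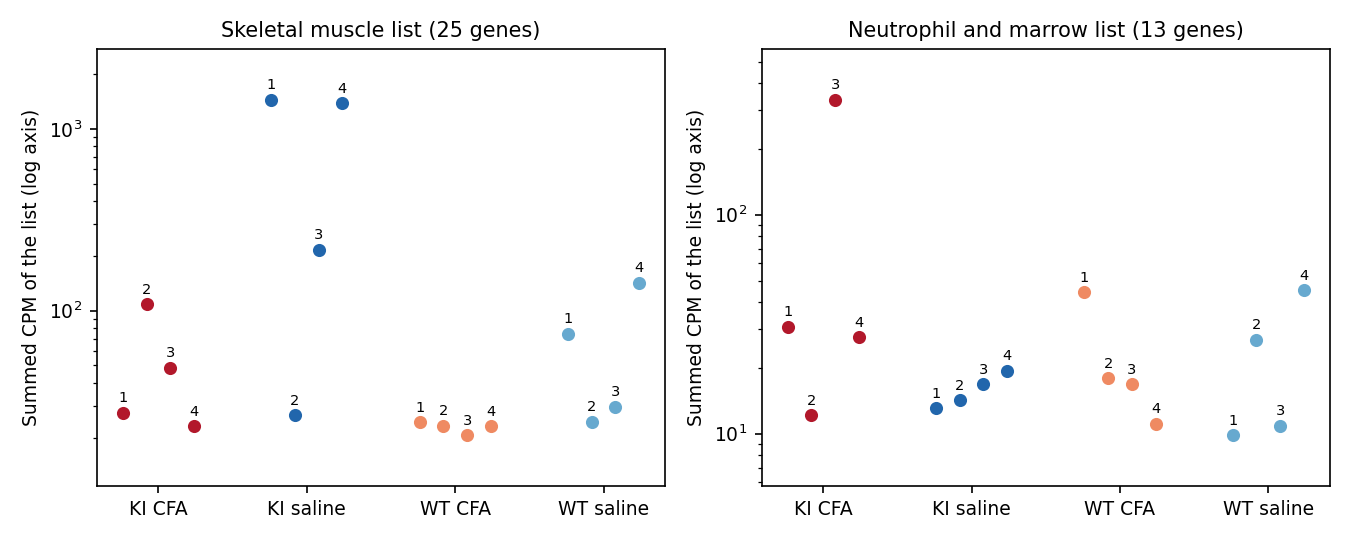
Summed CPM on a log axis of 25 skeletal muscle markers (left) and 13 neutrophil and marrow markers (right) in each library, with replicate numbers above the points. KI saline 1 and 4 stand at 1448 and 1384 CPM for muscle, and KI CFA 3 stands at 335 CPM for the neutrophil list.

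A gene's link to muscle was measured within the groups. The mean log2 CPM of the 25 markers gave each library a muscle score, and edgeR's quasi-likelihood test asked whether a gene's level changed with that score after the 4 group means were fitted. This test called 50 genes, 0.322% of 15507, at an edgeR adjusted p under 0.05 (Benjamini-Hochberg over all genes tested). All 50 rose with the score and none fell. The 50 held 22 of the 25 score genes, which enter the score themselves, and 28 others. The 28 included Mb, Myom2 of the sarcomere's M-band and Car3, a carbonic anhydrase of muscle and fat. No gene of the neuronal lists (221 tested) or of the glial lists (72 tested) was among the 50. Without KI saline 2 the test called 25 genes.

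The promoters of 3 of the 50 genes are shown because these genes carry the muscle signal. Acta1 encodes skeletal actin, Ckm the muscle creatine kinase and Mylpf a fast myosin light chain. The windows are the 250 bases before a transcript start in RefSeq's GRCm38.p6 promoter table. They lie at chr8:123894776-123895025 on the minus strand for Acta1, at chr7:19410844-19411093 on the plus strand for Ckm, and at chr7:127211358-127211607 on the plus strand for Mylpf. The Mylpf window lies inside the span of the gene, which begins at 127208848, before a start within it. Capitals mark E-boxes (CANNTG), the letters that myogenic factors such as MyoD read, and in Acta1 also a CArG box, the letters read by serum response factor.
Acta1: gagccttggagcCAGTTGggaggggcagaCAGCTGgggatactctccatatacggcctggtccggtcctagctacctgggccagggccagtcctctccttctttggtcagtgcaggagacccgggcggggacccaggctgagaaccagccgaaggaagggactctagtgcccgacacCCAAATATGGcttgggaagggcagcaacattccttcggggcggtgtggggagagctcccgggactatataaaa
Ckm: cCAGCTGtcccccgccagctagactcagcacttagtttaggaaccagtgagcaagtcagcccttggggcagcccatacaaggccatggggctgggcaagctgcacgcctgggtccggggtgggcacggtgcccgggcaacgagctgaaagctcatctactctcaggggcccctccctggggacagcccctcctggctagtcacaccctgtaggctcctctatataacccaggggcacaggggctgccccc
Mylpf: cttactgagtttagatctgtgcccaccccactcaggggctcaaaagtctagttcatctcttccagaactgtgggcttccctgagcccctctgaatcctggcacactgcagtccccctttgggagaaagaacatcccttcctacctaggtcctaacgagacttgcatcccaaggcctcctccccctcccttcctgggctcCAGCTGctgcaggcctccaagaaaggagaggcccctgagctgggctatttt
An E-box stood on either strand in 30 of the 35 of these 50 genes that had a promoter entry (85.7%), against 66.1% of 27018 genes with an entry. A CArG box stood in 3 of 35 (8.57%) against 1.40% of all. An E-box is common at this length, and a match is a description of letters only.

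Ckm and Mylpf followed Acta1 across the libraries. Ckm had 0.255, 6.90, 1.90 and 0.123 CPM in KI CFA and 118, 0.0795, 15.5 and 90.4 CPM in KI saline. Mylpf had 0.382, 2.47, 1.46 and 0.615 CPM in KI CFA and 35.6, 0.610, 6.04 and 37.0 CPM in KI saline. In both genes KI saline 1 and 4 were highest, KI saline 3 came next, and KI CFA 2 was the highest of its group. Across the 50 genes the median log2 fold change was -3.82 (range -6.19 to -1.39), and with the muscle score as a covariate it was -0.12 (range -1.26 to 3.71). These values describe genes chosen by the score and carry no test. Without KI saline 1 and 4 the median over the 26 tested genes of the muscle list was -1.09, against -4.09 with all libraries.

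Over the whole table, no gene passed edgeR's test between KI CFA and KI saline ganglia. The smallest edgeR adjusted p was 0.247. At an unadjusted p under 0.05 there were 881 of 15507 genes (5.68%), 341 higher (2.2%) and 540 lower (3.48%) in KI CFA. The 4 values of KI CFA did not overlap the 4 of KI saline in 670 genes (4.32%). Of the 30 smallest p-values, 26 belonged to genes lower in KI CFA, and 21 of the 30 were genes that rose with the muscle score. DESeq2 called 17 of the 20227 genes it was given (0.084%), with 1023 (5.06%) at an unadjusted p under 0.05. Limma-voom with quality weights called 0, with 1322 (8.53%) at an unadjusted p under 0.05. A fit of the 8 KI libraries alone called 1 gene (0.00657%), with 1229 (8.07%) at an unadjusted p under 0.05, and 8 genes (0.0525%; 1899, or 12.5%, unadjusted) when a source label number of 8 or above, against under 8, was a covariate. With the muscle score as a covariate edgeR called 0 genes, and 714 (4.6%) had an unadjusted p under 0.05. Without KI saline 1 and 4 it called 0, and 528 (3.32%) had an unadjusted p under 0.05. Of the 881 genes, 433 were also under 0.05 with the covariate, and 860 had the same sign.

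KI saline 2, the KI saline library with the lowest muscle score, decided whether edgeR called muscle genes, while DESeq2 called some with all libraries. Without KI saline 2 edgeR called 53 genes (0.339%; 901, or 5.76%, at an unadjusted p under 0.05). Of these 1 was higher and 52 were lower in KI CFA, and 48 of the 52 had a slope above 0.3 log2 units per unit of muscle score. The single higher gene was Arhgap36, a member of a family of GTPase-activating proteins, chosen here after its value was seen, with a log2 fold change of 0.36 ± 0.07. With all libraries, 24 of the 30 smallest p-values also belonged to genes with a slope above 0.3. Genes of the score are in both counts, and the share of all genes with such a slope is not given here. Among the 52, Myoz2 and Tmod4 had no measured slope. Ryr1, the calcium release channel of muscle fibres, had 1.37, 2.73, 2.83 and 1.89 CPM in KI CFA and 28.5, 2.31, 4.67 and 34.1 CPM in KI saline. Its log2 fold change was -2.97 ± 0.58 (edgeR adjusted p = 0.247; without KI saline 2, -3.34 with 0.00453). Neb, the giant protein of the thin filament, had 2.55, 5.55, 2.73 and 2.98 CPM in KI CFA and 37.0, 3.98, 5.53 and 66.9 CPM in KI saline. Pygm, the glycogen phosphorylase of muscle, had 4.04, 4.37, 1.79 and 1.45 CPM in KI CFA and 47.9, 2.15, 10.7 and 36.1 CPM in KI saline. With the covariate the log2 fold changes were -0.85 ± 0.39 for Ryr1, -0.92 ± 0.45 for Neb and -0.64 ± 0.36 for Pygm. Ryr1, Neb and Pygm enter the score themselves, so the covariate takes up part of their own differences and these values carry no test.

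Txlnb, which encodes beta-taxilin, had the smallest p of the comparison and a lower slope on the muscle score than Ryr1, Neb or Pygm. It had 0.605, 0.518, 0.468 and 0.590 CPM in KI CFA and 6.52, 1.14, 1.5 and 7.64 CPM in KI saline, so the groups did not overlap. Its log2 fold change was -2.93 ± 0.56 (edgeR adjusted p = 0.247), and -1.53 ± 0.54 with the covariate. Its highest libraries were KI saline 1 and 4, those with the most muscle transcripts, and without them the log2 fold change was -1.27. Its slope of 0.36 ± 0.10 did not pass the test (edgeR adjusted p = 0.536).

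**Figure D2:**
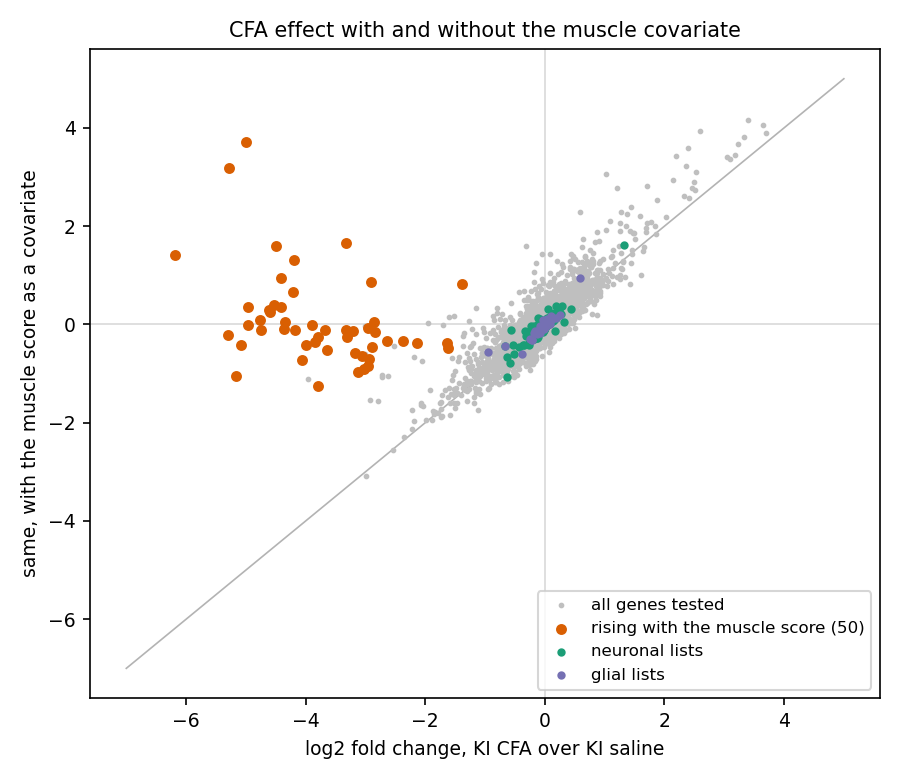
Log2 fold change of KI CFA over KI saline for each gene tested (horizontal axis) against the same value with the muscle score as a covariate (vertical axis), with the diagonal of equal values. The 50 genes that rose with the score (orange) have a median of -3.82 on the horizontal axis and -0.12 on the vertical axis, while most neuronal (green) and glial (purple) list genes lie near 0 along the diagonal.

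Outside muscle, several of the smallest p-values belonged to genes with small differences and tight replicates. Tent5b and Pdgfra, given further below, were also among the small p-values and differed more. Rasa4, a calcium-regulated Ras GTPase-activating protein (Entrez 54153, chromosome 5, 136083916 to 136111860), had 36.2, 36.5, 35.9 and 32.8 CPM in KI CFA and 26.8, 26.5, 27.9 and 27.0 CPM in KI saline. The groups did not overlap, and the log2 fold change was 0.38 ± 0.08 (95% interval 0.22 to 0.55, edgeR adjusted p = 0.247). It was 0.37 ± 0.10 with the muscle covariate and 0.31 ± 0.08 between WT CFA and WT saline. DESeq2 called Rasa4 with an adjusted p of 0.0157.

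Tagln2, an actin-binding transgelin, had 341, 355, 357 and 306 CPM in KI CFA and 255, 289.9, 291 and 263 CPM in KI saline. Serinc2, of the serine incorporator family, averaged 49.2 ± 1.48 CPM in KI CFA and 41.2 ± 2.58 CPM in KI saline. Neither gene overlapped between the groups. Their log2 fold changes were 0.31 ± 0.07 and 0.25 ± 0.06, each with an edgeR adjusted p of 0.257, and DESeq2 called both. Tfrc, the transferrin receptor that takes up iron, averaged 133 ± 9.70 CPM in KI CFA and 106 ± 7.57 CPM in KI saline, also without overlap. Its log2 fold change was 0.34 ± 0.08 (edgeR adjusted p = 0.257). Between WT CFA and WT saline the log2 fold changes were 0.40 ± 0.08 for Tfrc, 0.08 ± 0.07 for Tagln2 and 0.20 ± 0.06 for Serinc2.

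Ildr2, an immunoglobulin-domain membrane protein, was the lower gene with the smallest p after Txlnb and Ryr1. Its slope on the muscle score was -0.016 ± 0.018. It had 12.0, 10.9, 12.4 and 11.6 CPM in KI CFA and 14.1, 15.4, 16.3 and 15.0 CPM in KI saline. The groups did not overlap, and the log2 fold change was -0.37 ± 0.08 (edgeR adjusted p = 0.247), and -0.42 ± 0.09 with the covariate. DESeq2 called it with an adjusted p of 0.0241. In WT ganglia it was 0.05 ± 0.08, and the difference between the genotypes was -0.43 ± 0.11 with an interaction adjusted p of 0.718.

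Ly86, a secreted partner of the immune receptor Cd180 (Entrez 17084, chromosome 13, 37345345 to 37419036), was the only gene called when the 8 KI libraries were fitted alone. It had 167, 171, 171 and 153 CPM in KI CFA and 115, 114, 115 and 96.6 CPM in KI saline, so every KI CFA library exceeded every KI saline library. In that fit its log2 fold change was 0.588 ± 0.060 (edgeR adjusted p = 0.0046). With all 16 libraries it was 0.59 ± 0.17 (edgeR adjusted p = 0.409). The WT libraries, which enter that spread, ran from 105 to 142 CPM after CFA and from 78.9 to 167 CPM after saline.

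**Figure D3:**
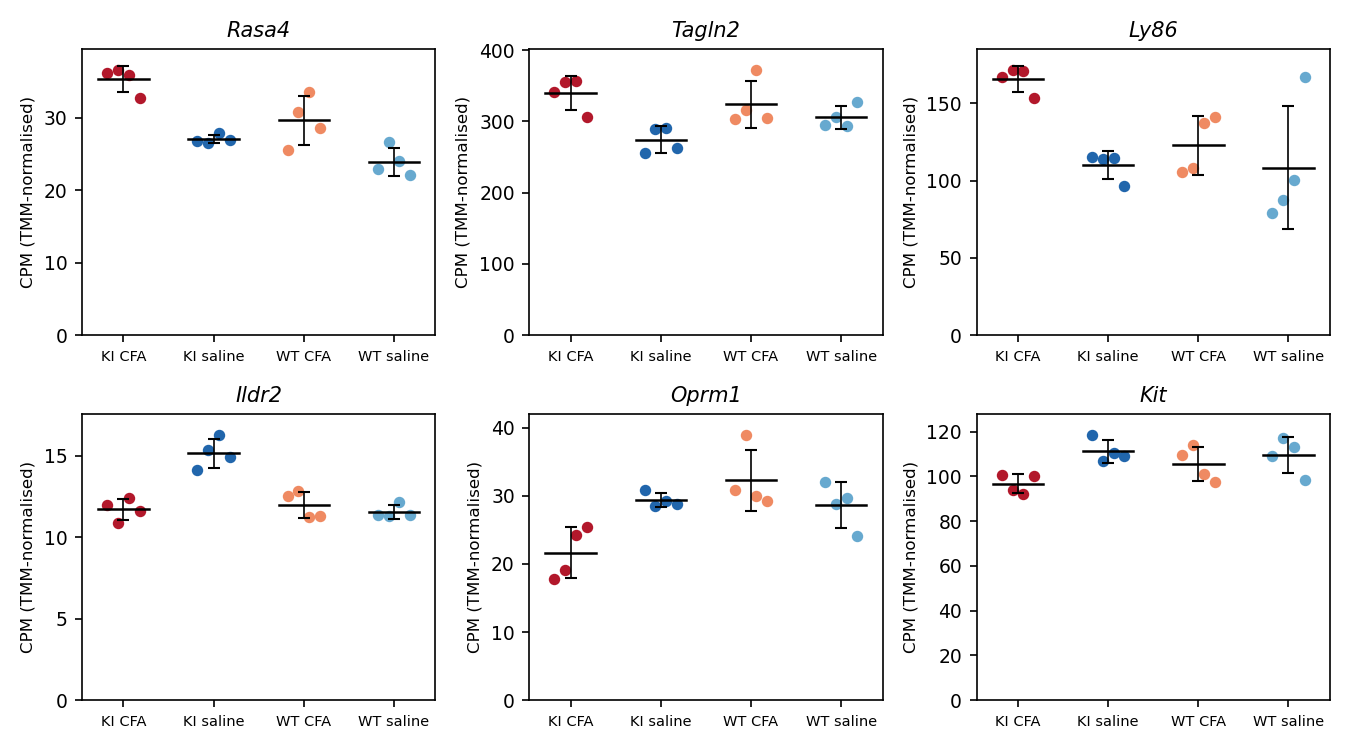
CPM of Rasa4, Tagln2, Ly86, Ildr2, Oprm1 and Kit in each library (points), with the group mean (long bar) and SD (whisker), n = 4 per group. In these 6 genes the KI CFA and KI saline points do not overlap, and none of the 6 passed edgeR's test over all genes (adjusted p from 0.247 to 0.531).

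The muscle covariate brought other genes to the smallest p-values, still with none called (smallest edgeR adjusted p = 0.938). Tent5b, a poly(A) polymerase, had 1.91, 3.94, 3.12 and 1.92 CPM in KI CFA and 1.36, 1.17, 1.06 and 1.48 CPM in KI saline. Its log2 fold change was 1.11 ± 0.27 (edgeR adjusted p = 0.257), and 1.38 ± 0.30 with the covariate. Lrg1, a secreted glycoprotein that neutrophils and vessels make, averaged 2.73 ± 1.43 CPM in KI CFA and 0.917 ± 0.551 CPM in KI saline. Its difference was 1.58 ± 0.42, 2.21 ± 0.47 with the covariate and 1.18 without KI CFA 3. Gm13889 and Miip were also higher, at 0.23 ± 0.06 and 0.59 ± 0.16, while the polarity gene Vangl1 and the zinc finger gene Zbtb16 were lower, at -0.39 ± 0.12 and -0.45 ± 0.15.

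Neuronal genes as a whole differed little between KI CFA and KI saline. Of 229 genes on 16 neuronal lists, 221 were tested and none was called. At an unadjusted p under 0.05 there were 9 higher and 9 lower (8.14%, against 5.68% of all genes). Their median log2 fold change was -0.02, against 0.00 for all genes tested, and -0.01 with the muscle covariate. The 95% interval of 190 of the 221 (86.0%) lay within a 1.5-fold difference in either direction, against 76.4% of all genes tested and 86.2% of genes with at least 1 CPM. For these 190, a difference of 1.5-fold or more lay outside the interval, taken gene by gene.

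**Figure D4:**
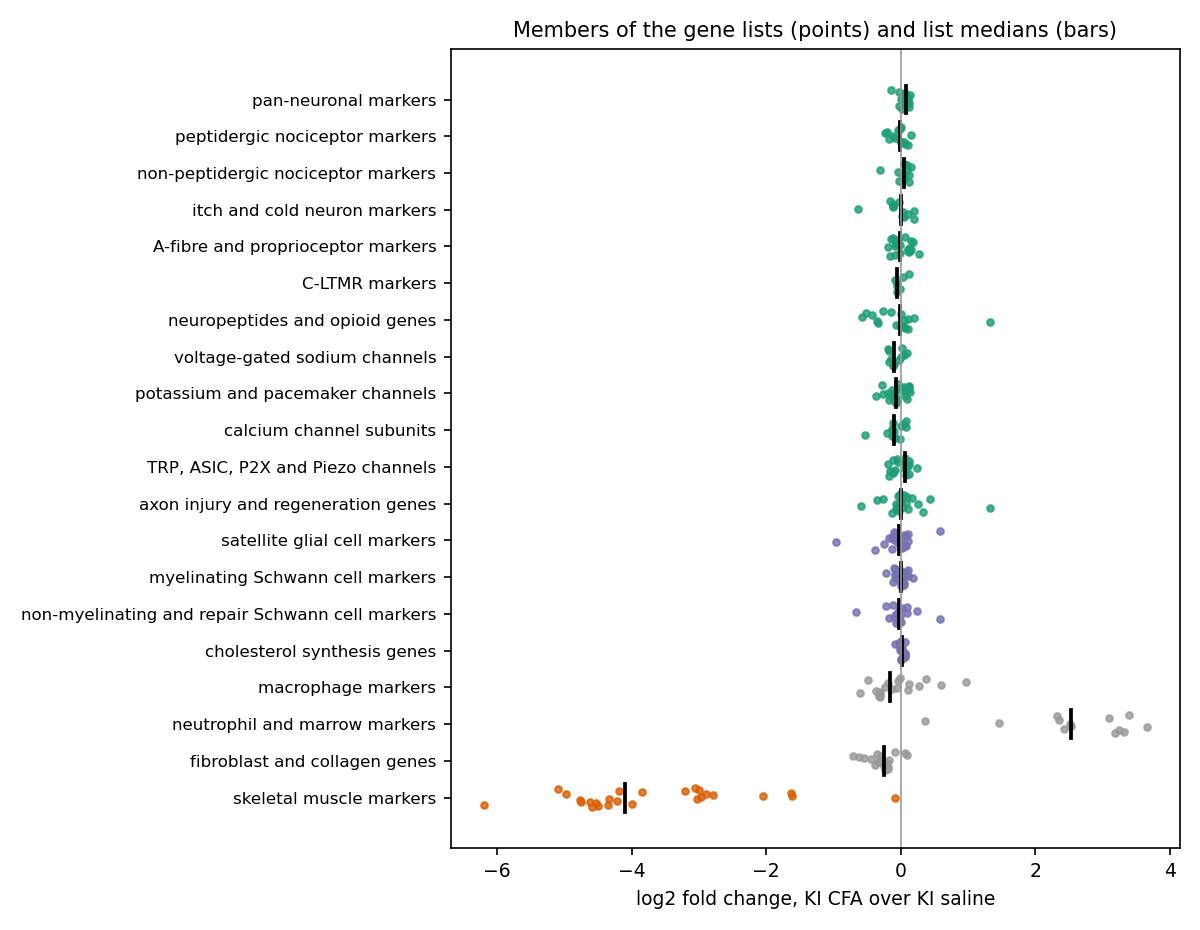
Log2 fold change of KI CFA over KI saline for the tested members of 20 gene lists (points) and the list median (black bar). Neuronal (green) and glial (purple) medians lie close to 0, while the neutrophil list has a median of 2.53 and the skeletal muscle list one of -4.09.

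Among receptors of neurotrophins, Ntrk3, Ngfr and Ntrk2 were lower in KI CFA by small amounts. Ntrk3 had a log2 fold change of -0.16 ± 0.14 (95% interval -0.46 to 0.14). Ngfr, the shared receptor p75, averaged 668 ± 30.2 CPM in KI CFA and 705 ± 36.1 CPM in KI saline (-0.08 ± 0.06). Ntrk2, the receptor of brain-derived neurotrophic factor, had 296, 278, 296 and 369 CPM in KI CFA and 359.8, 333, 336 and 385 CPM in KI saline. The groups overlapped through KI CFA 4, and the log2 fold change was -0.19 ± 0.09 (edgeR adjusted p = 0.870). The ligand gene Bdnf, which nerve growth factor induces in ordinary mice, averaged 46.2 ± 5.88 CPM in KI CFA and 37.7 ± 2.99 CPM in KI saline (0.29 ± 0.16, interval -0.04 to 0.62). Its WT difference was 0.39 ± 0.16.

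The peptidergic nociceptors are the neurons on which nerve growth factor acts. Of their 13 listed markers, 5 were above and 8 below 0, with a median of -0.02. Calca, which encodes the peptide CGRP, had 809, 698, 699 and 673 CPM in KI CFA and 683, 669, 707 and 628 CPM in KI saline. The groups overlapped and the log2 fold change was 0.10 ± 0.13 (interval -0.17 to 0.37). Trpv1, the capsaicin and heat channel, averaged 179.5 ± 26.0 CPM in KI CFA and 202 ± 25.4 CPM in KI saline (-0.17 ± 0.09), with overlap. Kit, the stem cell factor receptor, had 101, 93.8, 92.4 and 100.4 CPM in KI CFA and 118, 107, 111 and 109 CPM in KI saline. Every KI CFA library lay below every KI saline library, and the difference was -0.20 ± 0.06 (edgeR adjusted p = 0.531).

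Markers of non-peptidergic nociceptors were slightly higher in 9 of 12, with a median of 0.05. P2rx3, an ATP-gated channel, averaged 468 ± 10.2 CPM in KI CFA and 432 ± 20.9 CPM in KI saline, without overlap (0.12 ± 0.05, edgeR adjusted p = 0.869). The orphan receptor gene Mrgprd had 244, 248, 275 and 247 CPM in KI CFA and 231, 233, 233 and 238 CPM in KI saline, also without overlap (0.12 ± 0.07). The glutamate receptor gene Grik1 had a log2 fold change of 0.10 ± 0.05. In WT ganglia the log2 fold changes were 0.11 ± 0.05 for P2rx3, 0.18 ± 0.07 for Mrgprd and 0.09 ± 0.05 for Grik1, each with the sign it had in KI.

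The itch and cold list split evenly, 6 above and 6 below 0. Hrh1, a histamine receptor, was the lowest of it, with 4.01, 2.3, 2.37 and 2.78 CPM in KI CFA and 5.30, 4.77, 3.89 and 3.79 CPM in KI saline. The groups overlapped by KI CFA 1, and the log2 fold change was -0.64 ± 0.19 (edgeR adjusted p = 0.439). In WT it was 0.25 ± 0.19.

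Markers of large A-fibre neurons and proprioceptors, the cells in which native TrkC works, had a median of -0.01 over 20 genes. Nefl, the light neurofilament, averaged 5675 ± 407 CPM in KI CFA and 5176 ± 274 CPM in KI saline (0.13 ± 0.05). Runx3, a transcription factor of proprioceptors, had 23.4, 33.3, 28.5 and 22.3 CPM in KI CFA and 20.3, 25.4, 22.0 and 21.5 CPM in KI saline. Its groups overlapped, and the difference was 0.27 ± 0.14 (interval -0.02 to 0.55). The 7 markers of C-fibre touch neurons had a median of -0.06 and none with an unadjusted p under 0.05.

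Of 17 tested neuropeptide and opioid genes 8 were above and 9 below 0, with a median of -0.01, and none was called. Oprm1, the mu receptor on which morphine acts (Entrez 18390, chromosome 10, 6758593 to 7038209), had 17.8, 19.2, 24.2 and 25.5 CPM in KI CFA and 30.8, 28.5, 29.2 and 28.8 CPM in KI saline. The groups did not overlap. The log2 fold change was -0.44 ± 0.11 (95% interval -0.68 to -0.19, edgeR adjusted p = 0.349), and -0.47 ± 0.14 with the muscle covariate. In WT ganglia it was 0.17 ± 0.11, and the difference between the genotypes was -0.61 ± 0.16, with an interaction p of 0.0015 unadjusted and 0.718 adjusted in edgeR. Oprk1, the kappa receptor, had 2.07, 0.863, 1.95 and 1.94 CPM in KI CFA and 2.68, 2.09, 2.66 and 2.38 CPM in KI saline. It also did not overlap (-0.52 ± 0.22, edgeR adjusted p = 0.869). KI CFA 2 was the lowest library, and without it the Oprk1 difference was -0.31. Npy, a peptide gene known for its induction in injured large neurons, was at most 2.36 CPM in KI CFA and 0.921 CPM in KI saline (1.33 ± 0.83, interval -0.42 to 3.07).

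Ion channel lists lay close to 0 with opposite leanings. Sodium channel genes had a median of -0.10, with 7 of 11 below 0. Calcium channel subunits had a median of -0.10, with 10 of 13 below 0, and potassium and pacemaker channels one of -0.07, with 16 of 25 below 0. Scn9a, which encodes the pain channel Nav1.7, averaged 522 ± 57.3 CPM in KI CFA and 579 ± 27.2 CPM in KI saline, with overlap (-0.15 ± 0.09). The beta subunit gene Scn3b was at -0.19 ± 0.09, the M-current gene Kcnq3 at -0.37 ± 0.17 and the R-type calcium channel gene Cacna1e at -0.54 ± 0.24, and none was called. Cacna1e was at -0.20 without KI saline 1 and 4. TRP, acid-sensing, P2X and Piezo channels had a median of 0.06. Trpc6, a cation channel, had 25.7, 25.8, 27.3 and 24.5 CPM in KI CFA and 21.6, 22.0, 20.7 and 23 CPM in KI saline, without overlap (0.24 ± 0.07, edgeR adjusted p = 0.409).

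**Figure D5:**
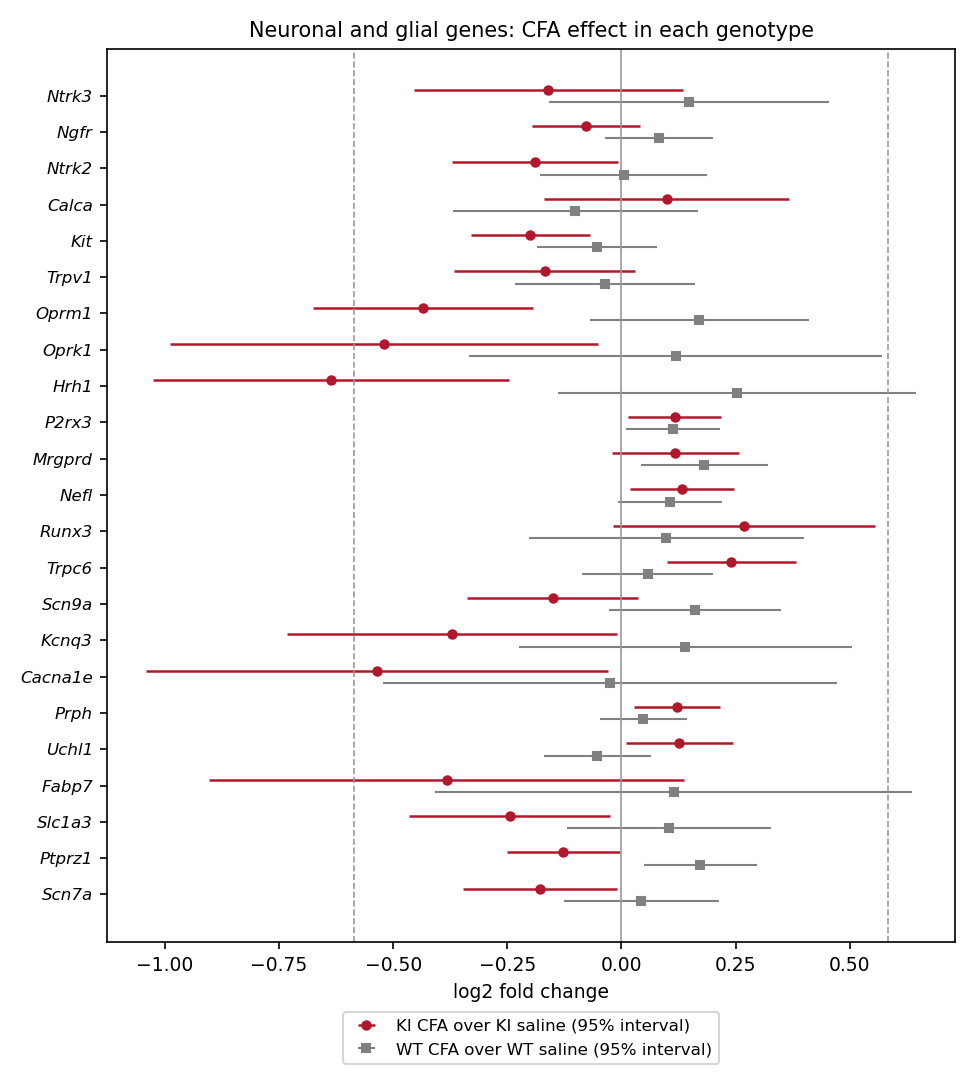
Log2 fold changes with 95% intervals for 23 neuronal and glial genes, KI CFA over KI saline (red) above WT CFA over WT saline (grey). Dashed lines mark a 1.5-fold difference (0.585 on the log2 scale in either direction). The red intervals of Oprm1, Oprk1, Hrh1, Kcnq3, Cacna1e and Fabp7 cross the lower line, and the others stay within the lines.

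Pan-neuronal markers were above 0 in 13 of 16, with a median of 0.07, and 6 of 16 did not overlap between the groups, where 4.32% of all genes tested did not. Prph averaged 2036 ± 54.9 CPM in KI CFA and 1872 ± 94.7 CPM in KI saline (0.12 ± 0.05). Uchl1, an abundant neuronal ubiquitin hydrolase, averaged 2403 ± 107 CPM in KI CFA and 2201 ± 85.6 CPM in KI saline (0.13 ± 0.06). Isl1, a transcription factor of sensory neurons, averaged 92.6 ± 3.61 CPM in KI CFA and 86.0 ± 1.49 CPM in KI saline (0.11 ± 0.05). The lowest edgeR adjusted p on this list was 0.808. Fewer cells of a type and less RNA per cell cannot be told apart in whole ganglia.

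Genes of axon injury and of neuronal activity had medians close to 0. The 23 tested injury and regeneration genes had a median of 0.00, with 1 (4.35%, against 5.68% of all genes tested) at an unadjusted p under 0.05. That gene was Gadd45a, a stress-response gene that rises after nerve injury in rodents, at 22.4 ± 1.81 CPM in KI CFA and 18.7 ± 2.87 CPM in KI saline (0.26 ± 0.10), and it was at 0.09 without KI saline 1 and 4. The 16 immediate early genes had a median of 0.00. Among them Junb was at 0.19 ± 0.10, and at 0.38 ± 0.10 with the muscle covariate. The 14 feedback genes of MAP kinase signalling, which Trk receptors drive, had a median of -0.04, with 11 below 0, and the phosphatase gene Dusp5 was at -0.20 ± 0.10 in KI and -0.20 ± 0.10 in WT. Nptx2, a synaptic pentraxin, had 154, 167, 169 and 158 CPM in KI CFA and 143, 125, 142 and 143 CPM in KI saline. It did not overlap (0.23 ± 0.09, edgeR adjusted p = 0.820).

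Glial genes also differed little. Of 74 listed genes 72 were tested, none was called, and 4 (5.56%, against 5.68% of all genes tested) had an unadjusted p under 0.05, all lower in KI CFA. Their median log2 fold change was 0.00, and 67 of 72 intervals (93.1%) lay within a 1.5-fold difference. The share was 76.4% of all genes tested and 86.2% of genes with at least 1 CPM. The 72 include the 20 cholesterol synthesis genes, whose intervals all lay within that bound. Satellite glial markers had a median of -0.03 over 20 genes. The glutamate transporter gene Slc1a3 had 16.1, 12.6, 11.4 and 12.4 CPM in KI CFA and 15.1, 16.7, 16.2 and 14.1 CPM in KI saline. The groups overlapped through KI CFA 1. Slc1a3 was at -0.24 ± 0.11 (edgeR adjusted p = 0.869) and the phosphatase gene Ptprz1 at -0.13 ± 0.06. Fabp7, a fatty acid-binding protein of satellite glia, varied within both groups, with 197, 105, 96.1 and 84.4 CPM in KI CFA and 159.6, 221, 159.5 and 86.9 CPM in KI saline. Its interval of -0.90 to 0.14 was wide.

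Schwann cell lists were centred on 0 as well. The 20 myelinating Schwann cell genes had a median of 0.01, with 11 above and 9 below 0, and ran from -0.22 to 0.18. The 16 genes of non-myelinating and repair Schwann cells had a median of -0.03, with 5 above and 11 below 0, and ran from -0.66 to 0.58. Scn7a, a sodium channel-like gene of non-myelinating glia and some neurons, averaged 413 ± 42.8 CPM in KI CFA and 467 ± 33.2 CPM in KI saline (-0.18 ± 0.08), with overlap. The 20 genes of cholesterol synthesis, a pathway that myelinating cells use heavily, had a median of 0.01 and ran from -0.08 to 0.07.

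Genes of neutrophils and bone marrow were higher in KI CFA, mostly through 1 library. Their summed level was 30.8, 12.1, 335 and 27.6 CPM in KI CFA libraries 1 to 4, and 13.0, 14.2, 16.8 and 19.4 CPM in KI saline. S100a9, an alarmin of neutrophils, had 5.57, 1.5, 77.8 and 5.34 CPM in KI CFA and 2.31, 2.07, 2.08 and 2.60 CPM in KI saline. KI CFA 3 was by far the highest library, KI CFA 1 and 4 also lay above all KI saline libraries, and the groups overlapped through KI CFA 2. In WT the summed level of the list was 11.1 to 44.2 CPM after CFA and 9.83 to 45.2 CPM after saline. Of 13 tested genes 12 had an unadjusted p under 0.05, all higher (2.2% of all genes tested), and none was called. The median log2 fold change was 2.53, and 0.39 without KI CFA 3. Ngp and Ltf, granule proteins of maturing neutrophils, were at 3.24 ± 0.92 and 3.65 ± 1.04, and at 1.06 and 1.14 without that library. The red cell anion exchanger gene Slc4a1 was at 3.05 ± 1.12 with KI CFA 3 and at -0.10 without it. The same library had 7.93 CPM of the myeloid integrin gene Itgam, against 0.834 to 2.2 CPM in the other KI CFA libraries. Whether blood or marrow cells account for these levels was not tested.

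Markers of tissue macrophages summed to 67.1 to 145 CPM in KI CFA and 81.0 to 121 CPM in KI saline. Their median over 20 genes was -0.16, with 14 below 0 and none at an unadjusted p under 0.05. Interferon-stimulated genes summed to 521 to 586 CPM in KI CFA and 516 to 629.6 CPM in KI saline, and their median was -0.04 over 32 genes. In WT it was 0.66, where WT CFA 2 had 1097 CPM and the other WT CFA libraries 579.8 to 718 CPM. The interaction had an unadjusted p under 0.05 in 20 of these 32 genes, against 6.29% of all genes tested, and an adjusted p under 0.05 in none. Among antigen presentation genes Psmb9, an immunoproteasome subunit, averaged 2.86 ± 0.279 CPM in KI CFA and 2.04 ± 0.275 CPM in KI saline, without overlap (0.49 ± 0.20, edgeR adjusted p = 0.866). The acute-phase inhibitor gene Serpina3n averaged 223 ± 9.59 CPM in KI CFA and 194 ± 3.99 CPM in KI saline, also without overlap (0.20 ± 0.07, edgeR adjusted p = 0.767). The chemokine gene Cxcl10 was at 0.78 ± 0.36.

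Fibroblast and collagen genes leaned lower in KI CFA, 18 of 20 below 0 with a median of -0.25 against 0.00 for all genes tested. Their summed level was 1804, 1259, 1369 and 1305 CPM in KI CFA libraries 1 to 4. In KI saline libraries 1 to 4 it was 1278, 1612, 1586 and 1809 CPM, so the groups overlapped. The list median in WT was -0.03. Pdgfra, the growth factor receptor of fibroblasts, had 9.29, 8.08, 8.08 and 7.08 CPM in KI CFA and 10.7, 10.8, 12.8 and 16.0 CPM in KI saline. The groups did not overlap, and the difference was -0.63 ± 0.15 (edgeR adjusted p = 0.257), and -0.57 ± 0.19 with the muscle covariate. The matrix genes Dcn and Lum were at -0.45 ± 0.18 and -0.54 ± 0.22, and for both KI CFA 1 was the highest library of its group and overlapped KI saline. In WT ganglia the log2 fold changes were -0.25 ± 0.16 for Pdgfra, -0.65 ± 0.18 for Dcn and -0.30 ± 0.22 for Lum. None of the 20 rose with the muscle score. The amount of connective tissue dissected with the ganglion was not measured, and its part in these values was not tested.

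The test of whether the CFA effect differed between KI and WT called no gene with edgeR (smallest adjusted p 0.718), with 976 genes (6.29%) at an unadjusted p under 0.05. CFA against saline in WT also called none, with 1079 genes (6.96%) at an unadjusted p under 0.05. Of the 881 KI genes at an unadjusted p under 0.05, 54.6% had the same sign in WT, against 46.0% of all genes tested. Across genes, Pearson's r between the KI and the WT log2 fold changes was 0.41, and 0.174 without the 50 genes that rose with the muscle score. Genes are not independent replicates, and the WT saline libraries also held more muscle transcripts than the WT CFA libraries.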

How the data were processed

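RNA was sequenced from pools of 6 ganglia of 2 mice. The labels' protocols give 150 ng of total RNA, poly-A selection, 15 rounds of PCR and reads of 50 bases from one end. Programs named in the submitters' processing notes are FastQC, HTSeq 0.6.1p1, SAMtools 1.5, TopHat2 2.1.1, Bowtie2 2.3.5.1 and bcl2fastq 2.20, and the genome is mm10. The strand setting and the annotation are not given in the sources used here, so reads of overlapping or antisense genes cannot be told apart.

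The values deposited by the authors are raw counts per gene, with no normalization. The table had 24982 entries, of which 4755 were 0 in every library. The 28 entries with a symbol but no Entrez identifier (0.192% of counts) were kept. Groups came from sample titles. With edgeR 4.0.16 in R 4.3.3, filterByExpr kept 15507 genes, libraries were scaled by TMM, and a quasi-likelihood model gave each of the 4 groups a mean, over all 16 libraries. Biological variation between libraries was 11.8% (common coefficient). Adjusted p-values are Benjamini-Hochberg over all genes tested, with a threshold of 0.05, and 95% intervals are per gene and unadjusted. DESeq2 was run with its default filter, which gives low-count genes no adjusted p, so its adjustment covers fewer genes than it was given. For edgeR fits the SE was worked back from the test, as the absolute log2 fold change over the square root of the quasi-likelihood F statistic. The 95% intervals were built from that SE. An exact permutation of 4 against 4 libraries could not go below p = 0.0286. The muscle score is the mean log2 CPM (prior count 2) of 25 markers, without Pvalb, which sensory neurons express. It entered a second fit as a covariate. The models were tested on simulated data. A count of 3 equals 0.0733 to 0.108 CPM in KI libraries, which covers counting error only, since PCR copies cannot be recognised in counts.

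The members and gene lists were chosen with earlier results of these data known. Of 637 listed symbols 634 were found in the table. Genes were named by a rule: Ntrk3, Ngfr, the 10 smallest p-values of each fit that called fewer than 10 genes, and up to 4 members per list with the smallest p. Not every gene so taken is printed, and some results are not reported here. Ly86, Calca, Fabp7, Acta1, Mb, Ckm, Mylpf, Tagln2, Tfrc and Arhgap36, and genes given only as calls of another fit, were named after their values were seen. Alternatives were the 8 KI libraries alone, limma-voom (limma 3.58.1), DESeq2 1.42.0, RLE scaling, other cutoffs on low counts, a replicate block, each library left out, muscle corrections, and a covariate for a source label number of 8 or above. Gene positions and promoters are from RefSeq GRCm38.p6.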

Additional observations from a re-analysis of the deposited data

Results flagged for a closer look

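In 16 of 212 groups of 4 libraries tested, 1 library stood apart by Dixon's ratio (the gap to its neighbour over the group's range, critical value 0.829). Chance gives about 1 in 20 such groups. The ratios were taken on log values, while the levels below are printed as CPM. A library far from the others in CPM, such as the one high for neutrophil genes in KI CFA, is therefore not always flagged.

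In KI CFA, replicate 2 was high for Gm13889 (123 CPM, ratio 0.834) and low for Oprk1 (0.863 CPM, ratio 0.927) and for the itch and cold neuron score (ratio 0.997). KI CFA 3 was high for Mrgprd (275 CPM, ratio 0.849), and KI CFA 1 was high for the immediate early gene score (ratio 0.841).

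In KI saline, replicate 2 was low for Gm13889 (85.6 CPM, ratio 0.872) and Nptx2 (125 CPM, ratio 0.947). It was high for Nefl (5586 CPM, ratio 0.890), Ptprz1 (102 CPM, ratio 0.835) and Stat2, a mediator of interferon signals (89.9 CPM, ratio 0.869). KI saline 4 was low for Isl1 (83.8 CPM, ratio 0.905), Ly86 (96.6 CPM, ratio 0.929), the cholesterol synthesis score (ratio 0.879) and the stress and heat shock score (ratio 0.869). KI saline 1 was low for Itgam (1.02 CPM, ratio 0.880) and the myelinating Schwann cell score (ratio 0.899).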

How the results depend on the processing

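The count of 0 genes called between KI CFA and KI saline was 17 with DESeq2 (3 higher, 14 lower), 1 with the 8 KI libraries alone and 8 with a source label number of 8 or above as a covariate (2 higher, 6 lower). Leaving out 1 library gave 0 to 53, where 53 came without KI saline 2. It stayed 0 with limma-voom, RLE factors, other filters, muscle genes removed, the muscle covariate, KI saline 1 and 4 left out, and these and KI CFA 3 left out, a choice made after seeing the data. Of the 17 genes, 12 lower ones had a muscle slope above 0.3, some of them genes of the score. The others were Rasa4, Tagln2, Serinc2, Ildr2 and the potassium channel gene Kcna7. The filter of edgeR left Kcna7 out, so no muscle slope was measured for it. Its DESeq2 log2 fold change was -3.88, and its link to muscle was not tested. The 8 genes were Ly86, Rasa4, Vps13c, Kmt2d, Kcnh7, Pclo, Abca6 and Arfgef3. The 50 genes that rose with the muscle score became 25 to 55 when 1 library was left out (25 without KI saline 2). The interaction called 0 under every alternative run.

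Signs reversed in 10 cases. With the muscle covariate the log2 fold changes were 0.82 for Car3, 0.26 for Acta1, 3.19 for Mb and 0.29 for Ckm. Without KI saline 1 and 4 they were 0.73 for Car3 and 1.40 for Mb. With KI CFA 3 also left out they were 0.86 for Car3, 1.73 for Mb and -0.13 for Itgam. Leaving out 1 library put Slc4a1 between -0.10 (without KI CFA 3) and 3.57. The cause was not tested.

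Groups share replicate numbers, but libraries of the same number did not deviate together (r from -0.147 to 0.007, against -0.126 to 0.193 for different numbers). For genes called, KI CFA against KI saline, a replicate block gave 0, with 1147 at an unadjusted p under 0.05, and it gave 0 for the interaction. The 4 libraries per group, pools of 2 mice, limit the precision: the median 95% interval reached 0.21 log2 units to either side, and genes under 1 CPM had wider ones.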

Other observations

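Cytosolic ribosomal protein genes summed to 5733, 5217, 5130.0 and 5112 CPM in KI CFA and 5159, 5076, 5116 and 4888 CPM in KI saline. KI CFA 1 stood above the other 7 libraries. Of 37 genes 34 were above 0, with a median log2 fold change of 0.07, and of 0.03 without KI CFA 1, and none had an unadjusted p under 0.05. Of 25 nuclear genes of oxidative phosphorylation 23 were above 0, with a median of 0.05, and of 0.02 without KI saline 1 and 4. The 16 clock genes had a median of 0.00 and none at an unadjusted p under 0.05, and the 18 endothelial and mural markers had a median of 0.01.

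Bpgm, the bisphosphoglycerate mutase of red cells and other tissues, had 18, 17.2, 20.0 and 17.6 CPM in KI CFA and 14.0, 15.2, 15.9 and 15.3 CPM in KI saline. The groups did not overlap, and the log2 fold change was 0.27 ± 0.07 (edgeR adjusted p = 0.381), and 0.22 without KI CFA 3. In WT it was -0.13 ± 0.07. The 7 tested adipocyte markers had summed levels of 14.5 to 22.4 CPM in KI CFA and 11.2 to 35.2 CPM in KI saline. Their median log2 fold change was 0.97 (range -1.39 to 1.21), and none was called. At an unadjusted p under 0.05, 1 was higher and 2 were lower (42.9%, against 5.68% of all genes tested). The lowest of the list was Car3, which rose with the muscle score.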
